A study of Rattus norvegicus with 16 samples.

Results

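The 9 genes described here belong to adenosine signalling and purine breakdown: the enzyme genes Nt5e, Ada, Pnp, Xdh and Adk, the receptor genes Adora1, Adora2a and Adora2b, and Pde10a, which acts on the cyclic nucleotides downstream of the receptors. They were taken by gene name from the deposited table of renal expression, in which each of the 9 names has 1 row, out of 35849 genes in all. Renal tissue was sequenced from 16 male Sprague Dawley (SD) rats that were 6 to 8 weeks old at the start, in 4 groups of 4: normal rats, rats with diabetic nephropathy (DN), and DN rats given sinomenine (SIN), an alkaloid of the plant Sinomenium acutum, at either 20 mg/kg or 40 mg/kg. The DN group and both SIN groups received streptozotocin at 45 mg/kg, which destroys insulin-producing beta cells, and then a diet high in glucose and fat, and rats were kept in the study only when blood glucose exceeded 16.7 mmol/L. The normal group received citrate buffer and a normal diet, and no gavage is described for it. The DN rats received vehicle and the SIN rats SIN, once a day by gavage for 8 weeks, so streptozotocin, the diet and the gavage cannot be told apart in any comparison with the normal group.

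Adenosine is released outside the cell when membrane enzymes strip phosphates from ATP, ADP and AMP, and the last step, from AMP to adenosine, is carried out by CD73, the product of Nt5e. Adenosine is then either deaminated to inosine by adenosine deaminase (Ada), which purine nucleoside phosphorylase (Pnp) and xanthine dehydrogenase (Xdh) degrade further toward urate, or returned to AMP by adenosine kinase (Adk). In the kidney adenosine acts on the A1 receptor (Adora1), which constricts the afferent arteriole and lowers cyclic AMP, and on the receptors encoded by Adora2a and Adora2b, which raise cyclic AMP. Pde10a encodes a phosphodiesterase that hydrolyses cyclic AMP and cyclic GMP.

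Totals per rat lay between 19616312 and 25217030 estimated counts, and the group medians lay between 20295397 for SIN (40 mg/kg) and 22698129 for DN. The numbers in the library names are consecutive inside every group, and any batch that they mark cannot be told apart from the group. The tissue carried the kidney markers it should, with the 9 proximal tubule markers summing to between 10640 and 17430 CPM (counts scaled to a common library total) in every rat. Markers of urothelium summed to 117.9 CPM in DN replicate 3 and 55.2 CPM in normal replicate 1, against 1.67 to 18.4 CPM in the other rats. The call of Nt5e for DN over normal, given below, held without either of these rats. In pieces of whole kidney, fewer cells of a type and less RNA per cell cannot be told apart.

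Levels of the 9 genes can be compared with each other only per transcript length. Over all 16 rats the mean was 134.7 CPM per kb for Pnp, 97.2 for Adk, 39.6 for Xdh, 18.3 for Nt5e and 9.45 for Ada. The receptors were lower, at 4.48 CPM per kb for Adora2a, 2.00 for Adora1 and 0.700 for Adora2b, and Pde10a was lowest at 0.328. The enzymes that remove inosine and recycle adenosine therefore stood far above the receptors in every group. Adora2b and Pde10a rest on few reads, 17 to 56 counts per rat for Adora2b and 12 to 37 for Pde10a, and the counting error of a single rat is correspondingly wide. The fourth receptor gene, Adora3, had too few reads to be tested, with 4 to 8 counts in each normal rat and 0 to 5 in each of the other 12 rats, 8 of which had none.

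**Figure D1:**
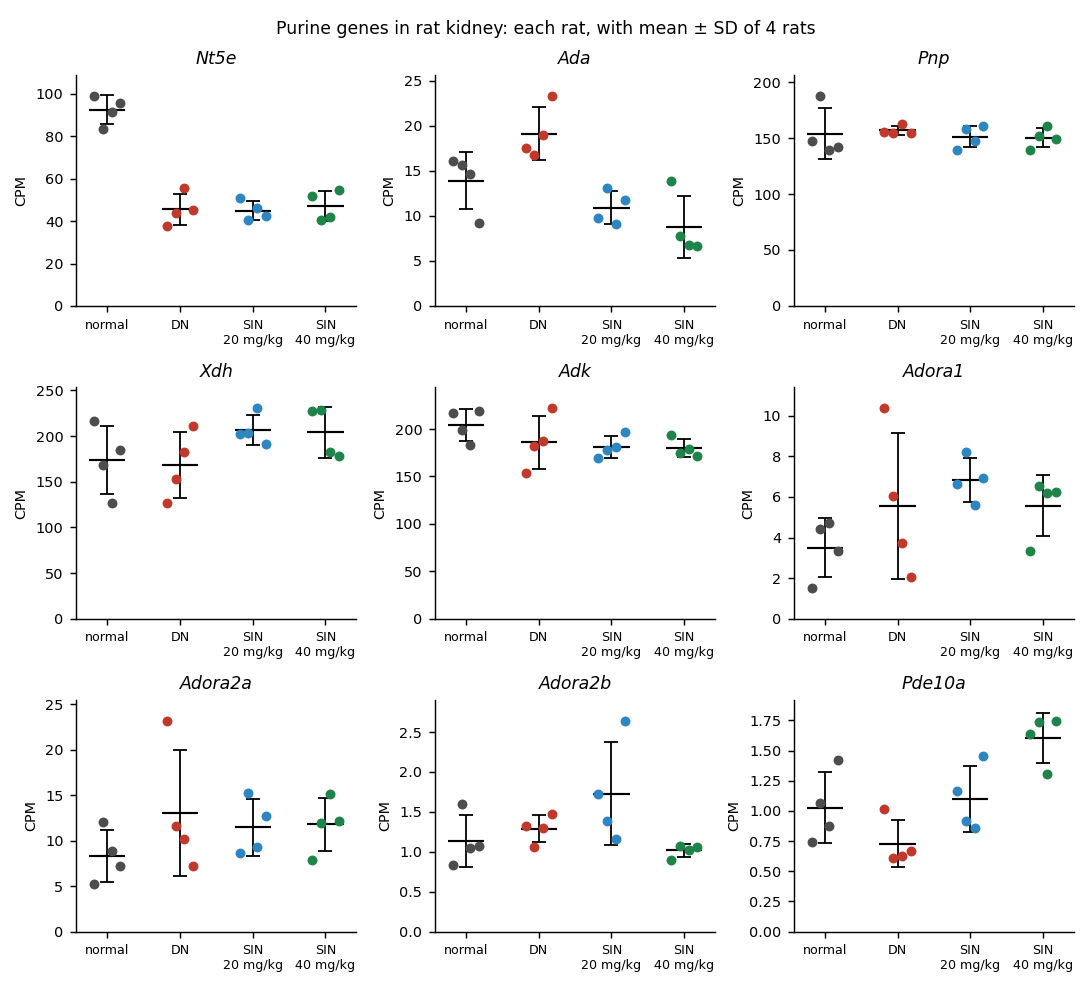
Level of each of the 9 genes in CPM (vertical axis, from 0) in the 4 groups (horizontal axis). Each point is 1 rat, the horizontal bar is the mean and the error bar the SD of 4 rats. Nt5e is above 83 CPM in every normal rat and below 56 CPM in every rat of the other groups, and the Ada points of the DN group lie above those of both SIN groups.

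In the DN kidneys the transcript of Nt5e, whose product forms adenosine from AMP, was lower. The transcripts of the later degrading enzymes were close to their normal levels. Nt5e fell 2.02-fold in the DN kidneys and was the only one of the 9 genes to pass the test. Ada, which removes adenosine, was 19.1 CPM in the DN group against 13.9 CPM in the normal group, a difference that did not pass, and the DN means of Pnp, Xdh and Adk lay within the range of the normal rats. The test of DN over normal called 1 of the 9 genes at an adjusted p under 0.05, or 11.1%, where 19.5% of the 15775 genes tested were called. The ranges of the DN and normal rats did not overlap for 2 of the 9 genes, Nt5e and Ada, or 22.2%, against 24.3% of all genes tested. These shares are not above the background.

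Nt5e (ENSRNOG00000011071) was measured at 99.2, 83.5, 91.6 and 95.9 CPM in the normal rats and at 37.7, 43.8, 55.4 and 45.3 CPM in the DN rats. Every DN rat lay below every normal rat. The normal mean was 92.5 ± 6.76 CPM and the DN mean 45.6 ± 7.31 CPM (SD, n = 4 each), which gave a log2 fold change of -1.02 with a 95% interval of -1.29 to -0.74 (adjusted p = 0.00324, edgeR quasi-likelihood test). Under the 14 alternatives the log2 fold change stayed between -1.13 and -0.93 and the adjusted p did not exceed 0.0219. Nt5e is expressed by the proximal tubule brush border and by fibroblasts of the renal interstitium. The 9 proximal tubule markers summed to between 11170 and 14900 CPM in the DN rats and between 12750 and 17430 CPM in the normal rats, and the 5 fibroblast and mesangium markers to between 290.4 and 401.2 CPM against 284.2 to 355.5 CPM, none of them at 0. These ranges overlap, but single markers did not move together. Of the 9 proximal tubule markers Slc7a13, a transporter of the straight part of the tubule, fell from 2067 to 724.8 CPM in the DN group (log2 fold change -1.51, adjusted p = 0.00113), and stayed below normal with SIN, at 636.4 and 763.0 CPM. Slc5a1 rose from 45.5 to 64.3 CPM (adjusted p = 0.0474), and the other 7 were not called. Of the 5 fibroblast and mesangium markers Pdgfra fell (-0.41) while Pdgfrb (0.38) and Col1a1 (1.08) rose. Dcn (-0.48) and Lum (0.835) were not called. The part of these cells in the fall of Nt5e was not tested. Nt5e overlaps Snx14 in the RefSeq annotation and the counting is not stated to use strand, so reads of the 2 genes may be shared. Snx14 was lower, at 12.2 against 15.6 CPM, with a log2 fold change of -0.35 that did not pass the test (adjusted p = 0.132). With SIN, Snx14 was at 16.4 CPM at 20 mg/kg and 17.4 CPM at 40 mg/kg. Its log2 fold changes over DN were 0.425 and 0.512, and neither passed the edgeR test (adjusted p = 0.2696 and 0.1795). The part of shared reads was not tested.

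Sinomenine left Nt5e where the DN group had it. The SIN (20 mg/kg) rats had 50.7, 40.4, 46.2 and 42.2 CPM and the SIN (40 mg/kg) rats 51.9, 40.5, 41.7 and 54.8 CPM, all inside the DN range and below the lowest normal rat. Against the DN group the log2 fold change was -0.03 at 20 mg/kg, with a 95% interval of -0.32 to 0.27, and 0.05 at 40 mg/kg, with an interval of -0.27 to 0.37. A log2 fold change of 1, about the size of the difference between normal and DN rats, lies outside both intervals. Against the normal group Nt5e was 2.06-fold lower at 20 mg/kg (adjusted p = 0.000557) and 1.97-fold lower at 40 mg/kg (adjusted p = 0.00135). Each was the only one of the 9 genes called in its comparison, where 6.36% and 5.97% of all genes tested were called. The 3 comparisons with the normal group share its 4 rats, so they are not independent of one another.

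**Figure D2:**
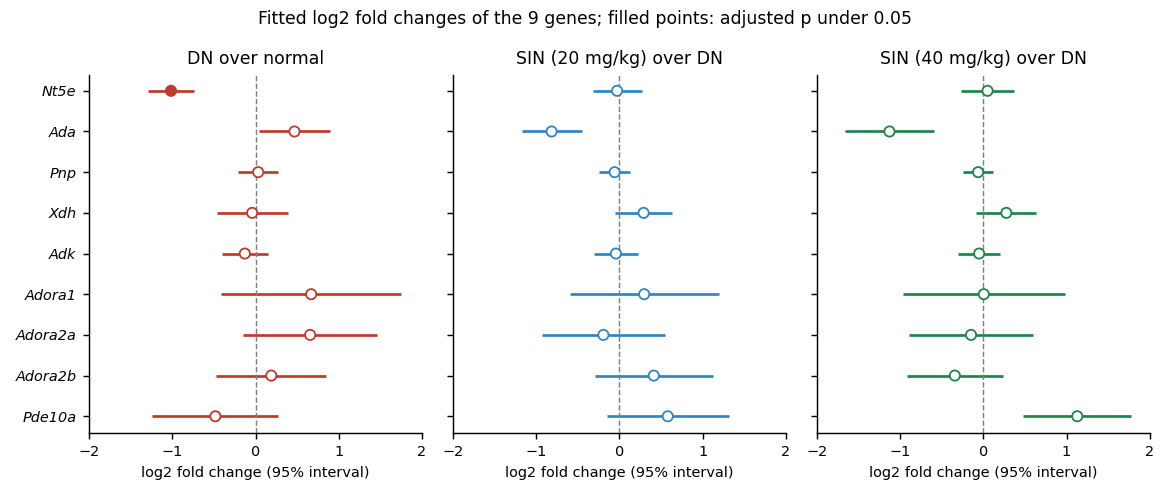
Fitted log2 fold change of each of the 9 genes (horizontal axis) with its 95% interval, for DN over normal and for each SIN dose over DN. Filled points passed an adjusted p under 0.05, which Nt5e did at -1.02 in DN over normal and no gene did for either SIN dose. The Ada points lie at -0.82 and -1.13 in the SIN panels, and the Pde10a point at 1.13 for 40 mg/kg.

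Ada had the smallest p of the 9 genes in both comparisons of SIN with DN, without passing the edgeR test. Its product deaminates adenosine and deoxyadenosine, and is abundant in lymphoid cells. Ada (ENSRNOG00000010265) was at 16.1, 15.6, 14.6 and 9.25 CPM in the normal rats and at 17.5, 16.7, 18.9 and 23.3 CPM in the DN rats. With SIN it was at 9.72, 13.1, 9.06 and 11.7 CPM at 20 mg/kg and at 13.8, 7.74, 6.81 and 6.68 CPM at 40 mg/kg. All 8 SIN rats were below the lowest DN rat, and the DN rats were all above the highest normal rat, by a margin of less than 1 CPM.

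The means of Ada were 13.9 ± 3.15 CPM in the normal, 19.1 ± 2.96 in the DN, 10.9 ± 1.86 at 20 mg/kg and 8.77 ± 3.41 CPM at 40 mg/kg (SD, n = 4 each). DN over normal gave a log2 fold change of 0.47, with an interval of 0.04 to 0.89 and an adjusted p of 0.106. SIN over DN gave -0.82 at 20 mg/kg, with an interval of -1.17 to -0.46 and an adjusted p of 0.270, and -1.13 at 40 mg/kg, with an interval of -1.66 to -0.59 and an adjusted p of 0.175. These intervals exclude 0 before adjustment over all genes, and the adjusted values do not pass. DESeq2 on the same counts gave adjusted p = 0.00258 at 20 mg/kg and 0.00215 at 40 mg/kg, so the call depends on the tool. Both SIN contrasts use the same 4 DN rats. The 40 mg/kg group differed from the 20 mg/kg group by -0.33 on the log2 scale, with an interval of -0.87 to 0.22 (adjusted p = 0.970), so no step between the doses was detectable.

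Without SIN (40 mg/kg) replicate 1, the highest rat of its group, Ada was lower than in the normal group by a log2 fold change of -0.98 (adjusted p = 0.0290), where all 4 rats gave -0.67 (adjusted p = 0.172). Of 5 T cell markers, Cd4 was also lower in the SIN rats, at 56.2 CPM in the DN, 36.7 CPM in the SIN (20 mg/kg) and 41.9 CPM in the SIN (40 mg/kg) group, and rat macrophages express it too. Cd4 made up most of the summed level of the 5, which was 57.9 to 66.4 CPM in the DN rats, 38.3 to 45.5 CPM at 20 mg/kg and 35.0 to 53.7 CPM at 40 mg/kg, with none at 0. The list as a whole did not follow it: at 20 mg/kg 3 of the 5 lay above the DN level, with a median log2 fold change of 0.11, and at 40 mg/kg 3 of the 4 that were tested lay below it, with a median of -0.29. None was called at either dose. Cd3e was at 1.71, 1.65 and 1.17 CPM in the DN and the lower and higher dose groups, Cd3d at 0.534, 0.571 and 0.458 CPM, Cd3g at 0.902, 1.26 and 0.929 CPM and Cd8a at 2.07, 2.35 and 1.86 CPM. The part of these cells in the level of Ada was not tested.

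The number of the 9 genes called for SIN over DN was 0 at both doses in the edgeR quasi-likelihood test, and so was the share of all genes tested, 0% of 15724 genes at 20 mg/kg and 0% of 15530 genes at 40 mg/kg. At an unadjusted p under 0.05 it was 1 of 9 at 20 mg/kg, Ada, against 15.4% of all genes, and 2 of 9 at 40 mg/kg, Ada and Pde10a, against 17.1%. DESeq2 called 1 of 9 at each dose, Ada both times, where it called 1.41% and 2.81% of all genes. The rats of the 2 groups did not overlap for 1 of 9 genes at 20 mg/kg, against 8.99% of all genes, and for 2 of 9 at 40 mg/kg, against 10.4%.

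No difference passed the test for the later enzymes of the route or for the kinase that competes with it. Pnp, which splits inosine and guanosine into base and sugar phosphate, ranged from 139.1 to 188.0 CPM over all 16 rats, and its 3 log2 fold changes for DN over normal and for SIN over DN lay between -0.06 and 0.03. The widest interval among them ran from -0.21 to 0.27. Xdh, whose product forms xanthine and then urate, ranged from 126.4 to 230.3 CPM. Its means were 174.1 ± 37.2 CPM in the normal and 168.5 ± 36.5 CPM in the DN group, against 207.0 ± 16.5 CPM at 20 mg/kg and 204.2 ± 27.8 CPM at 40 mg/kg (SD, n = 4 each). The SIN over DN log2 fold changes of Xdh were 0.29 (-0.05 to 0.63) and 0.28 (-0.08 to 0.64), and neither passed (adjusted p = 0.373 and 0.401).

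Adk phosphorylates adenosine back to AMP and holds its concentration inside cells low. Its means were 204.4 ± 16.9 CPM in the normal, 186.1 ± 28.0 CPM in the DN, 181.5 ± 11.6 CPM in the SIN (20 mg/kg) and 179.7 ± 9.61 CPM in the SIN (40 mg/kg) group (SD, n = 4 each). The groups overlapped in every comparison, and the lowest adjusted p of Adk, for SIN (40 mg/kg) over normal, was 0.248. Adk overlaps Ap3m1 in the RefSeq annotation. The ratio of Ada to Adk per length, which sets the deaminating against the recycling enzyme as transcripts, was 0.143 ± 0.0128 in the DN group, 0.0834 ± 0.0139 at 20 mg/kg and 0.0668 ± 0.0219 at 40 mg/kg (SD, n = 4 each). In the normal group it was 0.0953 ± 0.0246. The ratio moves mainly with Ada and carries no test of its own.

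The adenosine receptors had a wide spread between rats of the same group. Adora1 (ENSRNOG00000003442), the receptor that couples to Gi, was at 1.54, 4.41, 4.74 and 3.34 CPM in the normal rats and at 10.4, 6.07, 3.76 and 2.05 CPM in the DN rats. It was at 6.62, 8.19, 5.62 and 6.91 CPM at 20 mg/kg and at 3.33, 6.52, 6.21 and 6.24 CPM at 40 mg/kg. The DN rats ran from 2.05 to 10.4 CPM against 1.54 to 4.74 CPM in the normal rats, while all 4 SIN (20 mg/kg) rats lay above every normal rat. For DN over normal the log2 fold change of Adora1 was 0.67 with an interval of -0.42 to 1.75 (adjusted p = 0.341), and without DN replicate 1 it was 0.18.

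Adora2a, a receptor that couples to Gs, followed the same rats. It was at 5.21, 12.0, 8.82 and 7.20 CPM in the normal rats and at 23.1, 11.6, 10.2 and 7.24 CPM in the DN rats. At 20 mg/kg it was at 8.60, 15.2, 9.27 and 12.7 CPM, and at 40 mg/kg at 7.92, 11.9, 15.1 and 12.2 CPM. DN replicate 1 was the highest rat of all 16 for both receptors. DN over normal gave 0.65 on the log2 scale (-0.15 to 1.46, adjusted p = 0.214), which was 0.23 without DN replicate 1. SIN over DN gave -0.19 (-0.93 to 0.55) at 20 mg/kg and -0.15 (-0.90 to 0.60) at 40 mg/kg, intervals wide enough to hold a change of either sign.

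The only adenosine receptor contrast called in any of the alternatives was Adora1 at 20 mg/kg against the normal group. Its log2 fold change was 0.96 (SE 0.304), with an interval of 0.29 to 1.64, an adjusted p of 0.0970 in the quasi-likelihood test and of 0.0266 in DESeq2. DESeq2 called 2 of the 9 genes there, Adora1 and Nt5e, and 10.9% of all genes. The same 2 genes were those whose SIN (20 mg/kg) and normal rats did not overlap, against 13.7% of all genes. At 40 mg/kg the same contrast was 0.67 (-0.09 to 1.42, adjusted p = 0.275), and 1 of 9 genes did not overlap there, against 14.3%. Adora1 shares its locus with Mybph in the RefSeq annotation.

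Over the 16 rats, log2 CPM of Adora1 and Adora2a had a Pearson correlation of 0.87, and each ran opposite to Adk, at -0.86 and -0.75. These rats share groups, depth and the composition of the tissue piece, and the correlations are descriptions. The summed level of 4 markers of collecting duct principal cells (Aqp2, Aqp3, Avpr2 and Fxyd4) was set beside both receptors. In every group the rat with the lowest sum had the lowest Adora2a, and in every group but SIN (20 mg/kg) the lowest Adora1. The sum and Adora2a ranked the normal rats in the same order. The sum was lowest in normal replicate 1 at 268.1 CPM, where Adora1 and Adora2a were also lowest. It was 603.0 CPM in DN replicate 4, the lowest DN rat for both. Elsewhere the order differed: DN replicate 2 had the highest sum of the DN group, 1783 CPM, with 11.6 CPM of Adora2a against 23.1 CPM in DN replicate 1. SIN (20 mg/kg) replicate 1 had the lowest sum of its group and the lowest Adora2a, 8.60 CPM, but not the lowest Adora1. The sum ran from 268.1 to 896.9 CPM in the normal, 603.0 to 1783 CPM in the DN, 872.4 to 1579 CPM in the SIN (20 mg/kg) and 910.2 to 1823 CPM in the SIN (40 mg/kg) group. None of the 4 markers was at 0. The sum of 3 tubular injury markers was lowest in the rat with the lowest Adora1 in every group. These were normal replicate 1 (108.7 CPM) and DN replicate 4 (301.9 CPM). With SIN they were replicate 3 at 20 mg/kg (535.1 CPM) and replicate 1 at 40 mg/kg (242.7 CPM). The thick ascending limb sum was lowest in the same rats except at 20 mg/kg. The proximal tubule sum was lowest in normal replicate 3 and DN replicate 1 instead. The part of any of these lists in the receptor levels was not tested.

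**Figure D3:**
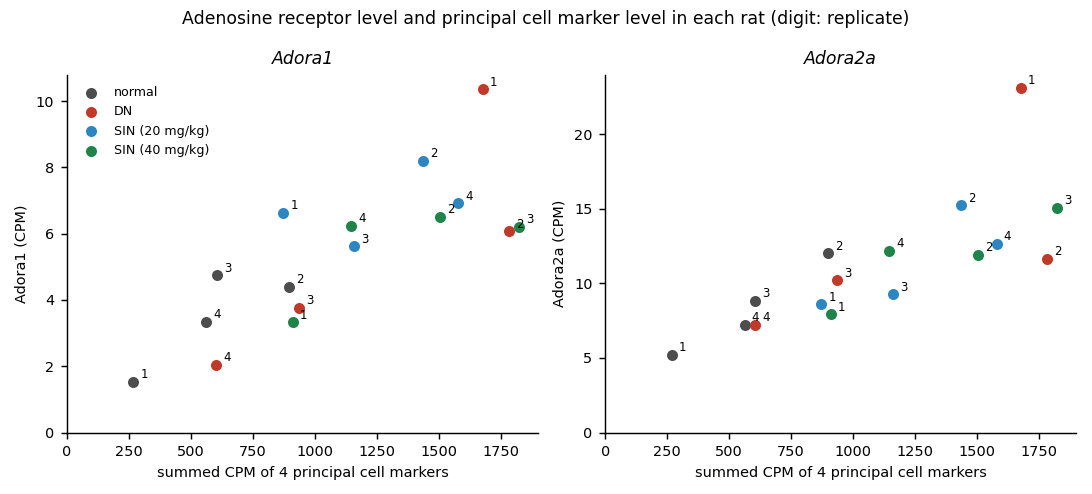
Level of Adora1 (left) and Adora2a (right) in CPM against the summed CPM of 4 principal cell markers, both axes from 0. Each point is 1 rat, coloured by group and labelled with its replicate number. Normal replicate 1 is lowest on both axes, DN replicate 1 has the highest receptor levels, and the DN rats span 603.0 to 1783 CPM of the markers.

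Adora2b, the low-affinity receptor, rested on few reads. Its counts gave 0.838, 1.60, 1.05 and 1.07 CPM in the normal rats and 1.33, 1.06, 1.30 and 1.48 CPM in the DN rats. At 20 mg/kg they gave 1.72, 1.39, 1.17 and 2.63 CPM, and at 40 mg/kg 0.898, 1.08, 1.03 and 1.06 CPM. The 40 mg/kg rats lay just below the 20 mg/kg rats, with a log2 fold change of -0.77 (-1.47 to -0.07, adjusted p = 0.961) that was -0.49 without SIN (20 mg/kg) replicate 4. Adora2b was the 1 gene of 9 whose rats did not overlap between the 2 doses, against 3.31% of all genes. No gene of the 9 was called between the doses, where 0.00639% of 15657 genes were, and 1 of 9 had an unadjusted p under 0.05 against 4.98%. DESeq2 called 0 of 9 and 0.109% of all genes.

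Pde10a, the cyclic nucleotide phosphodiesterase, was highest in the SIN (40 mg/kg) rats. Pde10a (ENSRNOG00000011310) was at 0.745, 1.06, 0.878 and 1.42 CPM in the normal rats and at 1.02, 0.607, 0.626 and 0.667 CPM in the DN rats. It was at 1.16, 0.915, 0.861 and 1.46 CPM at 20 mg/kg and at 1.64, 1.74, 1.31 and 1.74 CPM at 40 mg/kg. All 4 rats at 40 mg/kg were above all 4 DN rats, which had 12 to 23 counts each, while the 20 mg/kg and the normal rats overlapped both. SIN (40 mg/kg) over DN gave a log2 fold change of 1.13 (SE 0.291), with an interval of 0.48 to 1.78 and an adjusted p of 0.187. The change stayed between 1.05 and 1.31 in all 14 alternatives, none of which called it, and DESeq2 gave it no adjusted p. SIN (20 mg/kg) over DN gave 0.58 (-0.15 to 1.31, adjusted p = 0.399), and the 2 doses differed by 0.54 (-0.08 to 1.16, adjusted p = 0.961).

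The genes whose levels ran closest to each of the 9 over the 16 rats were taken as the 3 with the highest Pearson correlation of log2 CPM, among 14444 genes of at least 1 CPM on average. For Nt5e they were Agtr1a, which encodes the angiotensin II type 1a receptor, at 0.96, Rin2 at 0.96 and Mpv17l at 0.96. All 3 were lower in the DN than in the normal group in the test, Agtr1a at 36.8 against 56.4 CPM, Rin2 at 75.0 against 130.4 CPM and Mpv17l at 56.2 against 189.4 CPM. With the group means removed, the correlations were 0.87, 0.84 and 0.57, so that of Mpv17l rested more on the difference between groups. For Ada the nearest genes were Snu13 (0.91), Tspan14 (0.89) and Apmap (0.88), and for Xdh they were Ddc (0.90), Gltpd2 (0.89) and AABR07013439.1 (0.88). Pnp ran closest to Os9 (0.80), Laptm5 (0.79) and C1qb (0.78), of which the last is a complement gene of macrophages, and Adk closest to Rasl12 (0.89), Hadh (0.88) and Fmo1 (0.88).

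For Adora1 and Adora2a the likeness lay within groups. Adora1 ran closest to Rasal1 (0.95), Proser2 (0.94) and Cblc (0.94), and with group means removed the correlations were still 0.95, 0.94 and 0.93. Adora2a ran closest to Cldn15 (0.95), Atp2c2 (0.95) and Slc8b1 (0.95), with 0.95, 0.96 and 0.94 after group means were removed. Adora2b reached 0.76 with Rbis, 0.74 with Cox8b and 0.74 with Anp32b, and 0.60, 0.65 and 0.63 with group means removed. Pde10a reached 0.81 with Otud7b and 0.80 with Rbl2, which dropped to 0.45 and 0.37 within groups. The highest of 14444 correlations are high in part because they were picked, and they carry no test.

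The wider purine pathway list holds 80 named genes of the table in 81 rows, since Pde4c has 2, with the 9 included. Of these rows 74 had enough reads to be tested. In DN over normal 8 of the 74 were called higher and 6 lower, or 18.9%, near the 19.5% of all genes tested, and their median log2 fold change was 0.18 against 0.00 for all genes. Leaving out the 9, it was 8 higher and 5 lower of 65. The 111 tested genes that the deposited table assigns to the KEGG pathway Purine metabolism gave 10 higher and 10 lower. The purine pathway was thus not called more often than other genes, and what follows names the called ones by role.

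Of 15 tested genes of nucleotidases and related enzymes, 2 rose and 1, Nt5e, fell in the DN group, or 20.0% against 19.5% of all genes tested. The 2 that rose encode cytosolic nucleotidases that do not mainly act on AMP, Nt5c2 with a preference for IMP and GMP and Nt5c3b for methylated guanosine phosphate. Nt5c2 went from 109.7 to 151.9 CPM (log2 fold change 0.47, SE 0.099, adjusted p = 0.0155) and Nt5c3b from 15.7 to 24.9 CPM (0.68, SE 0.111, adjusted p = 0.00715). Both cytosolic genes were also higher in the SIN (20 mg/kg) than in the normal group, with Enpp3, a surface nucleotide pyrophosphatase, as a further call (0.66, adjusted p = 0.0167). None of the breakdown genes, Ada among them, was called higher. Of the 8 tested, 1 or 12.5% was called lower, Adal, from 9.54 to 6.06 CPM (-0.65, adjusted p = 0.0380). Its product deaminates methylated AMP rather than adenosine.

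The largest group of called genes belonged to the synthesis of purines from scratch, with 3 higher and 2 lower of 13 tested. That is 38.5%, against 19.5% of all genes tested, a difference that was not tested. Both isoenzymes of adenylosuccinate synthase, the first step from IMP toward AMP, were called, in opposite directions. Adssl1, the muscle isoenzyme, was between 1.58 and 3.19 CPM in the normal rats and between 5.68 and 8.39 CPM in the DN rats (log2 fold change 1.54, SE 0.237, adjusted p = 0.00579). Adss, the isoenzyme of most tissues, was between 83.3 and 109.4 CPM in the normal rats and between 58.1 and 70.7 CPM in the DN rats (-0.60, SE 0.110, adjusted p = 0.0104). Neither pair of groups overlapped. Adssl1 remained above normal in both SIN groups, by 1.37 (adjusted p = 0.00792) and 1.06 (adjusted p = 0.0262), the second of which was lost without normal replicate 3 or 4 or SIN (40 mg/kg) replicate 2 or 4.

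The other synthesis genes called in the DN group were Adsl (0.36) and Impdh1 (0.61), which were higher, and Prps2 (-0.46), which was lower. Of 5 salvage genes 1 or 20.0% was called. Aprt, which returns adenine to AMP, rose from 39.2 to 58.5 CPM (0.58, adjusted p = 0.0225). Among 6 urate transporters 2 or 33.3% were called. Slc22a12, the apical urate exchanger URAT1, rose from 586.6 to 775.1 CPM (0.41, adjusted p = 0.0480) and Slc17a3 from 198.8 to 286.2 CPM (0.53, adjusted p = 0.0274). Of 19 tested rows of phosphodiesterase genes 2 or 10.5% fell, Pde4b (-0.47) and Pde8a (-0.32), both specific for cyclic AMP. No nucleoside transporter of 5 and no receptor of 3 was called. The calls of Nt5e, Nt5c3b, Adss and Adssl1 held in all 14 alternatives, and the other 10 each lost theirs in at least 1, as when normal replicate 4 was left out, which took the 14 calls to 4. Leaving out that rat also took the calls over all genes from 3074 of 15775 to 769 of 15978.

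**Figure D4:**
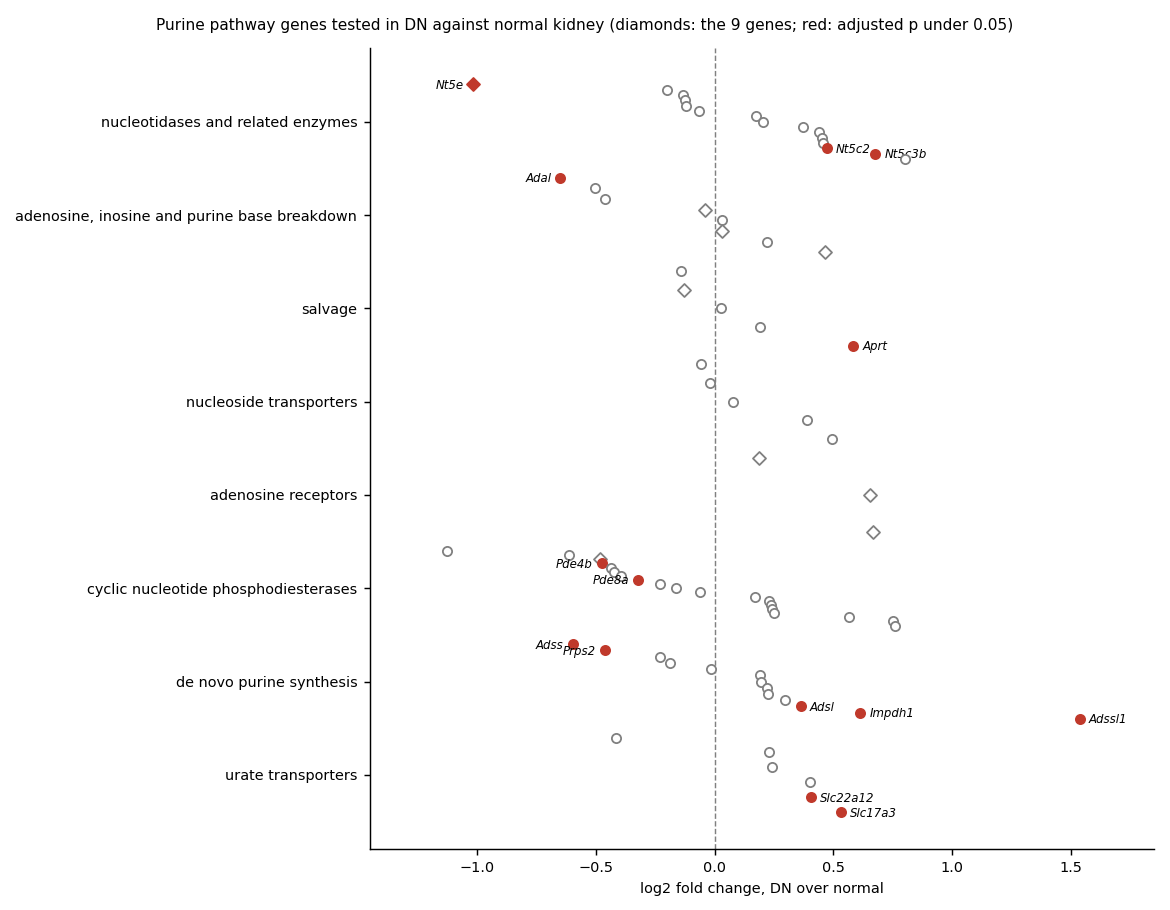
Log2 fold change of DN over normal (horizontal axis) for the 74 tested rows of purine pathway genes, in rows by role, with a small vertical offset for legibility. Diamonds are the 9 genes described here and circles the others, and red symbols with names passed an adjusted p under 0.05. Nt5e lies furthest left of the called genes at -1.02 and Adssl1 furthest right at 1.54.

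With SIN, no gene of the 74 was called against the DN group at either dose in the quasi-likelihood test. DESeq2 called 1 at 20 mg/kg and 3 at 40 mg/kg, where it called 1.41% and 2.81% of all genes. At an unadjusted edgeR p under 0.05 the list held 9, or 12.2% against 15.4% of all genes, at 20 mg/kg and 19, or 25.7% against 17.1%, at 40 mg/kg. Of the urate transporters that were higher in the DN group, Slc22a12 was at 528.6 CPM at 20 mg/kg and 531.4 CPM at 40 mg/kg. It was at 775.1 CPM in the DN and 586.6 CPM in the normal group. Slc17a3 was at 206.2 and 231.9 CPM at the lower and higher dose, against 286.2 CPM in the DN and 198.8 CPM in the normal group. The log2 fold changes over DN of Slc22a12 were -0.56 (adjusted p = 0.287) and -0.54 (adjusted p = 0.199). Adss, lower in the DN group, was at 88.1 and 86.1 CPM, with log2 fold changes over DN of 0.43 (adjusted p = 0.270) and 0.41 (adjusted p = 0.199). The SIN means of Adss and Slc17a3 lay between the normal and DN means, and those of Slc22a12 lay below both. None of these changes over DN passed the test.

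Against the normal group 4 genes of the 74 were higher and 4 lower at 20 mg/kg, or 10.8% against 6.36% of all genes, and 1 was higher and 1 lower at 40 mg/kg, or 2.70% against 5.97%. The 20 mg/kg calls beyond those named were Slc29a3 (-0.39), Pde4b (-0.58) and Prps2 (-0.66), all lower. Of the 8 calls at 20 mg/kg, those of Nt5e and Adssl1 held in all 14 alternatives and the other 6 were each lost in 2 to 10 of them. At 40 mg/kg the calls were Adssl1 and Nt5e. At both doses Nt5e lay below and Adssl1 above the normal level, and the calls share the 4 normal rats with those of the DN group.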

How the data were processed

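Renal RNA of 16 rats was sequenced, 4 per group. Per the labels and the study's methods, mRNA was enriched with oligo(dT), trimmed with SeqPrep and Sickle and aligned with TopHat to the rat genome; RSEM, Bowtie and edgeR are named in the submitters' notes without a role. The authors deposited estimated counts per gene and rat without normalization, of which 74.3% of nonzero values were whole numbers, as were all 144 values of the 9 genes. They were rounded here. The table also holds 4 libraries that match no sample and group means, which were not used. Counts could share reads between overlapping genes.

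Counts were tested with edgeR 4.0.16 (quasi-likelihood, two-sided, TMM, filterByExpr, only the 8 rats of the 2 groups compared), and p-values adjusted by Benjamini-Hochberg over all genes tested, at a threshold of 0.05. Standard errors are |log2 fold change| over the square root of F. CPM were scaled by TMM factors of the 16 rats together, with a prior count of 2 in log2 CPM. On data simulated from these counts, with changes larger than any seen in the 9 genes, the test called most of the changed genes. The simulation does not show how often changes of the size seen here would be called. Alternatives were DESeq2 1.42.0, RLE factors, no filter, at least 10 counts in every rat, all rats in 1 fit, the replicate number as a block, and each rat left out. Nothing states that rats were housed or processed apart, so p-values measure the spread between the samples of each fit. In the main test these are the 8 rats of the 2 groups compared. The genes named are the 9, the pathway genes called in any comparison or of smallest p in their role, and the 3 most correlated genes of each of the 9, of which 1 is not reported here. The 9 genes, the pathway and marker lists were chosen with earlier results of these data known. Slc17a1 was not analysed here, Uox had no reads, and no sequences are shown, because the deposited values are expression only. R 4.3.3 and Python 3.11.15 were used.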

Additional observations from a re-analysis of the deposited data

Results flagged for a closer look

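In 5 of 36 groups of 4 rats, 1 rat stood far from the other 3, its gap to the nearest, as a share of the group's range, exceeding Dixon's 95% critical value, which chance gives in about 1 of 20 groups. Ada was 13.8 CPM in SIN (40 mg/kg) replicate 1 against 6.68 to 7.74 CPM in the other 3 rats. Adora1 was 3.33 CPM in the same rat against 6.21 to 6.52 CPM. Pde10a was 1.02 CPM in DN replicate 1 against 0.607 to 0.667 CPM, which is 23 counts against 12 to 14. Pnp was 188.0 CPM in normal replicate 2 against 139.1 to 147.0 CPM, and 162.7 CPM in DN replicate 3 against 154.9 to 155.2 CPM, a narrow range in which a small gap suffices.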

How the results depend on the processing

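The number of the 9 genes called in DN over normal was 1, Nt5e, in all 14 alternatives. It was 0 for SIN over DN and became 1 at both 20 mg/kg and 40 mg/kg with DESeq2, which called Ada, and it was 1 for SIN (20 mg/kg) over normal and 2 with DESeq2, which added Adora1. For SIN (40 mg/kg) over normal it was 1 to 2 with each rat left out, the 2 coming without SIN (40 mg/kg) replicate 1, when Ada passed. Of the purine pathway list, 14 genes were called in DN over normal, and 4 to 19 with each rat left out: 8 without DN replicate 2, 9 without DN replicate 3, 7 without normal replicate 1, 5 without normal replicate 3 and 4 without normal replicate 4. Over all genes 3074 of 15775 were called. Without these same rats, in the same order, 1308, 2586, 1622, 987 and 769 were called, of 15953 to 16016 tested. The list had 0 calls for SIN over DN, and with DESeq2 1 at 20 mg/kg and 3 at 40 mg/kg. DESeq2 called 221 of 15724 and 436 of 15530 genes there. For SIN (20 mg/kg) over normal its 8 calls were 2 to 8 with each rat left out, 2 of them without normal replicate 4, 3 without SIN (20 mg/kg) replicate 3, and 4 without normal replicate 1 or 3 or SIN (20 mg/kg) replicate 2 or 4. Over all genes 1009 of 15877 were called there. Without normal replicates 1, 3 and 4 the all-gene calls were 703, 668 and 555. Without SIN (20 mg/kg) replicates 2, 3 and 4 they were 551, 582 and 650. For SIN (40 mg/kg) over normal its 2 calls were 7 with DESeq2 and 1 to 5 with each rat left out, 5 without SIN (40 mg/kg) replicate 1, 4 without normal replicate 2, and 1 without normal replicate 3 or 4 or SIN (40 mg/kg) replicate 2 or 4. Over all genes 940 of 15735 were called there, and 1761 of 15735 with DESeq2. Without normal replicates 2, 3 and 4 the all-gene calls were 982, 626 and 490. Without SIN (40 mg/kg) replicates 1, 2 and 4 they were 890, 462 and 1016.

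With the replicate number as a block, the pathway calls were 6 in DN over normal, 5 for SIN (20 mg/kg) and 6 for SIN (40 mg/kg) over normal, while the calls among the 9 genes were the same in number. Over all genes the block gave, in the same order, 1325 of 15775, 758 of 15877 and 1255 of 15735 calls. Without the block these were 3074, 1009 and 940. The replicate numbers do not pair the rats: of 24 same-numbered pairs the deviations from the group means correlated between -0.34 and 0.42 over 13844 genes, 4 of them over 0.1, and in 6 of 48 comparisons of 1 rat with the 4 rats of another group the best correlation was with the rat of the same number.

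Directions of changes near 0 turned. The log2 fold change of Adora1 for SIN (40 mg/kg) over DN, 0.01, was -0.01 with DESeq2, with RLE factors and with all 16 rats in 1 fit, and -0.27 to 0.48 with each rat left out. Leaving out each rat gave, for DN over normal, -0.01 to 0.13 for Pnp and -0.17 to 0.08 for Xdh. For SIN (20 mg/kg) over DN it gave -0.11 to 0.08 for Nt5e, -0.13 to 0.05 for Adk and -0.39 to 0.23 for Adora2a. For SIN (40 mg/kg) over DN it gave -0.05 to 0.16 for Nt5e, -0.15 to 0.04 for Adk and -0.35 to 0.26 for Adora2a. Between the doses it gave -0.01 to 0.14 for Nt5e, -0.05 to 0.02 for Pnp, -0.08 to 0.04 for Xdh, -0.06 to 0.02 for Adk and -0.10 to 0.21 for Adora2a. For SIN (20 mg/kg) over normal it gave -0.08 to 0.08 for Pnp and -0.07 to 0.29 for Pde10a, and for SIN (40 mg/kg) over normal -0.09 to 0.07 for Pnp and -0.28 to 0.04 for Adora2b. The cause was not tested.

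With 4 rats a group, the intervals of Adora1 and Adora2a span more than 1 on the log2 scale, and the reads of Adora2b and Pde10a, at most 56 and 37 per rat, limit what can be seen of them.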
